A study of Mus musculus with 884 samples.

Results

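The cells described here were in late S phase, with most of the genome already copied, at the start (d0) and end (d7) of a mouse embryonic stem cell differentiation. They were the 99 of 884 single cells in the series that were sorted from S phase on one of these 2 days and had a deposited replication score above 70% and up to 90%. That score gives, in percent, how much of a cell's called autosomal genome had been copied. There were 50 such cells at d0 and 49 at d7. In single-cell Repli-seq a cell is sorted by DNA content, its genome is amplified and sequenced, and each 80 kb bin is called replicated or not yet replicated by its copy number.

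The d0 cells were CBMS1 embryonic stem cells, a line of the strain cross CBA/MsM, grown in 2i/LIF medium. The d7 cells were of the same line after 2 days as epiblast-like cells and 5 further days as floating aggregates in plain GK15 medium, a protocol the labels describe as yielding neurectoderm. The labels name no gene deletion or transgene, and both groups come from this 1 line. The calls are of DNA and hold no marker by which the labelled cell type could be checked. No label names a culture, so each day counted as 1 sample and no test was run between the days. Counts of cells are given with 95% intervals by the exact Clopper-Pearson method, for counting error only.

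A mammalian genome is copied in large domains, up to several megabases long, that replicate at characteristic times. Early domains are mostly gene-rich, open chromatin of the A compartment, and late domains are mostly gene-poor chromatin of the B compartment, much of it held at the nuclear lamina. Embryonic stem cells are known to switch the timing of many domains as they leave pluripotency. A late S cell has copied almost all early and middle domains, so it separates domains among the late ones, which a mid-S cell leaves uncopied alike.

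Scores were matched between the days, because a cell further into S phase has more late bins replicated whatever its state. Matching gave 44 pairs, one d0 and one d7 cell in each, with a median score difference of 0.286 points and a largest of 1.87 points. Scores averaged 78.1% at d0 (SD 5.34 over cells) and 78.5% at d7 (SD 5.44). Just inside the lower limit lay cells of 70.7% at d0 and 70.3% at d7, and just outside it cells of 69.8% and 69.7%. At the upper limit the nearest cells were 89.7% inside and 95.5% outside at d0, and 89.9% and 90.3% at d7. Between 28138 and 29823 of 30890 bins were called per late S cell.

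Some cells and labels stood apart and bear on all that follows. In 3 d7 cells, sorted as 75perS_11, 75perS_21 and MidS_57, the calls ranked poorly along the mean mid-S profile of their own day, with areas under the curve (AUC, where 1 is a perfect ranking) of 0.786, 0.489 and 0.526. The d0 cells had AUCs of 0.935 to 0.970, and the median at d7 was 0.953. The last 2 of those 3 cells were also marked by the authors' own Manhattan-distance filter and fell in matched pairs. A further 2 d7 cells, 65perS_06 and 75perS_10, carry the authors' mark for extreme scores although their deposited scores were 71.8% and 70.3%. Values without the 3 poorly ranked cells are given where they moved a result. Copying bins that mid-S cells leave uncopied lowers a cell's AUC, so this choice is not independent of the shares over late bins. Of the d0 cells 35 of 50, and of the d7 cells 3 of 49, had been deposited in an earlier series by the submitters. By sorting gate, 43 d0 cells came from 75perS and 7 from MidS, while the d7 cells came from 5 gates, 17 of them from 75perS. No merged G1 control was used for cells of both days, so the control and the day cannot be told apart. No 2 late S cells were called alike in more than 92.9% of bins over 4851 pairs, so no cell appeared to be deposited again under another label.

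The first question was how much of the genome differed between the days at this stage of S phase. A bin passed the size rule when its share of replicated matched cells lay at least 30 points apart between the days. Of 29656 autosomal bins called in at least 50% of the cells of each day, 2143 (7.23%, 171 Mb) were replicated in more d7 cells and 1369 (4.62%) in fewer. On average the first set had been copied by 25.96% of d0 and 75.2% of d7 cells, and the second by 85.7% and 38.4%. Leaving out the poorly ranked cells gave 2208 and 1567, leaving out all cells the authors marked gave 2158 and 1554, and cells of the 75perS gate alone (17 pairs) gave 1907 and 1168. Because matched scores fix the total replicated, gains over some bins must be met by losses over others.

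Bins were then sorted into early and late by other cells, the mid-S cells with scores of 40 to 70% (59 at d0 and 101 at d7). Late at both days were 7915 bins replicated in at most 30% of mid-S cells on each day, and early at both days were 11920 bins replicated in at least 70%. Among the late bins 1283 (16.2%) were replicated in more d7 late S cells and 477 (6.03%) in fewer. Among the early bins 0 and 1 (0.00839%) passed. The early bins were replicated in 99.9% of d0 and 98.5% of d7 late S cells, a difference of -1.42 points that was -0.417 points without the poorly ranked cells. The late counts were 1300 and 617 when those cells were left out.

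The mid-S values of the differing late bins were as follows; the class caps them at 30% on both days, so a mid-S difference could not pass 30 points while the size rule asked for at least 30 in late S. The 1283 bins went from 17.998% of d0 to 65.0% of d7 late S cells and from 4.99% to 15.0% of mid-S cells. The 477 bins went from 71.9% to 29.9% of late S cells and from 18.1% to 5.87% of mid-S cells. In points the late S and mid-S differences averaged 47.01 and 10.04 for the first set and -41.98 and -12.2 for the second. Mid-S cells, which are other cells of the same days, had a difference of the same sign in 1187 of the 1283 bins (92.5%) and in 458 of the 477 (96.0%). Over all 7915 late bins the mid-S share was higher at d7 in 43.5%.

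The late bins as a whole were replicated in somewhat more d7 cells. Their mean share was 32.6% at d0 and 39.04% at d7, a difference of 6.44 points (4.83 without the poorly ranked cells). Per cell, the percentage of late bins replicated ran from 15.6% to 63.3% at d0, with a median of 30.6%, and from 19.7% to 83.5% at d7, with a median of 36.3%. The ranges overlapped widely, but within pairs of matched score the d7 cell was higher in 39 of 44. The d7 range was 19.7% to 67.3% when the poorly ranked cells were left out. Among matched cells with scores above 70% and up to 75%, the mean was 20.5% ± 3.25 (SD) over 16 d0 cells and 26.9% ± 11.2 over 16 d7 cells, or 24.2% ± 2.80 over 15 d7 cells without the poorly ranked MidS_57. Above 75% and up to 80% it was 30.4% ± 2.82 over 13 d0 cells and 35.5% ± 6.18 over 9 d7 cells. Above 80% and up to 85% it was 40.7% ± 3.78 over 10 d0 cells and 45.9% ± 12.5 over 13 d7 cells, or 42.8% ± 5.57 over 12 without 75perS_21. Above 85% and up to 90% it was 60.7% ± 2.04 over 5 d0 cells and 61.9% ± 5.60 over 6 d7 cells. In each of these windows the difference was smaller than the SD over d7 cells, except from 70% to 75% when MidS_57 was left out.

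**Figure D1:**
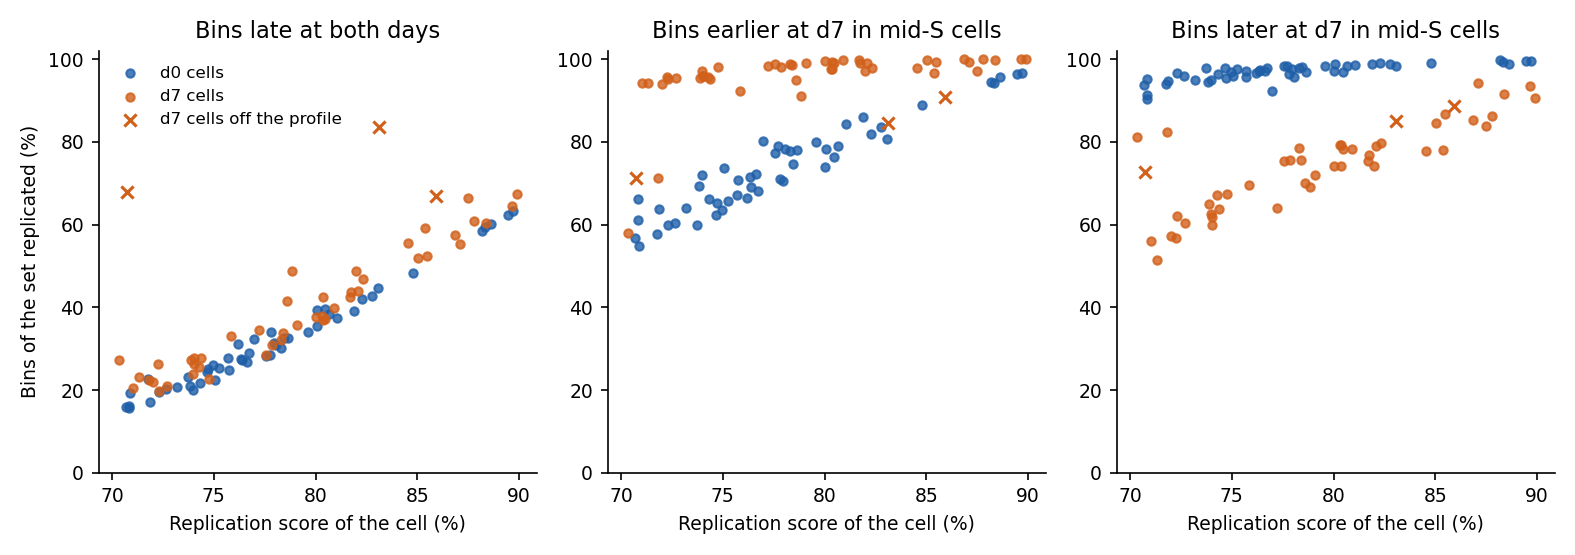
Percentage of bins replicated in each of the 99 late S cells (vertical axis) against the cell's replication score in percent (horizontal axis), for bins late at both days and for bins earlier or later at d7 in mid-S cells. Blue points are d0 cells, orange points d7 cells, and crosses the 3 d7 cells with an AUC below 0.8; over late bins the days overlap, while over the other sets most d7 cells lie above or below the d0 cells of like score.

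The bins that mid-S cells had placed earlier or later at d7 were followed into late S. In mid-S cells 2300 of these bins (7.76%) were replicated in at least 30 points more d7 cells and 2280 (7.69%) in at least 30 points fewer. In late S the earlier set was replicated in 74.3% of d0 and 94.9% of d7 cells. Of its bins, 97.3% had reached at least 80% of cells at d7 and 55.5% at d0. The later set was replicated in 96.8% of d0 and 73.0% of d7 cells, with 96.5% of bins at or above 80% of cells at d0 and 51.6% at d7. So 668 of the earlier bins (29.04%) and 672 of the later bins (29.5%) still passed the size rule in late S. These 668 and 672 made up 31.2% and 49.1% of the bins that passed in late S in each direction.

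Every matched pair showed these directions. Per cell, the earlier set ran from 54.7% to 96.7% replicated at d0 (median 74.3%) and from 57.97% to 100% at d7 (median 97.5%), and the d7 cell was higher in 44 of 44 pairs. The later set ran from 90.3% to 99.7% at d0 (median 97.4%) and from 51.4% to 93.5% at d7 (median 74.7%), and the d7 cell was higher in 0 of 44. Of the d7 cells, 41 lay below the lowest d0 cell over the later set, and 26 lay above the highest d0 cell over the earlier set. The lowest d7 cell over the earlier set was 75perS_10, one of the cells marked for its score, at 57.97%; the other, 65perS_06, stood at 71.3%. Over the later set these cells stood at 81.2% and 82.3%.

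Of the classes drawn from mid-S cells, bins late on 1 day alone had the widest separation of means. The 2218 bins late in d0 mid-S cells alone were replicated in 64.0% of d0 and 90.8% of d7 late S cells, and 853 of them passed the size rule upward. The 1983 bins late in d7 mid-S cells alone went from 91.7% to 62.0%, and 821 passed downward.

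How individual late bins were placed on each day was compared next. Across the 7915 late bins the d0 and d7 shares correlated at r = 0.548, against 0.811 over all bins; this is across bins, which neighbour each other and are not replicates, and a narrower range of shares lowers r. At d0, 3389 late bins (42.8%) were replicated in at most 20% of cells, and at d7 2505 (31.6%). Of the 3389, 1827 (53.9%) were also at or below 20% at d7, 991 (29.2%) stood between 20% and 50%, 506 (14.9%) between 50% and 80%, and 65 (1.92%) at 80% or more. Of the 539 late bins replicated in at least 80% of d0 late S cells, 136 (25.2%) were still there at d7 and 2 (0.371%) were at or below 20%.

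**Figure D2:**
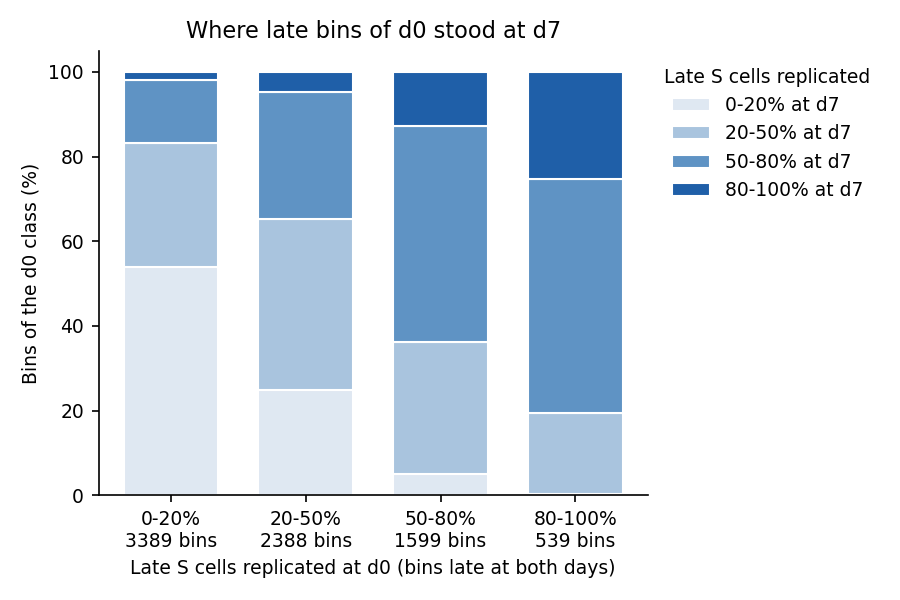
Stacked bars of the 7915 bins late at both days, grouped on the horizontal axis by the percentage of d0 late S cells that had replicated them; the shades give the percentage of bins in each d7 class. More than 50% of the bins rare at d0 (1827 of 3389) were also rare at d7, and 136 of the 539 most often replicated at d0 were in the highest class at d7.

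Shares fell from the edges of late domains to their interiors on both days. Runs of at least 5 late bins formed 324 late domains with a median length of 1.36 Mb and a longest of 11.04 Mb. Bins at least 800 kb from the nearer edge of their domain were replicated in 14.2% of d0 and 21.7% of d7 late S cells, while bins in the outermost 160 kb were replicated in 62.7% and 61.0%. Bins that passed the size rule upward made up 17.9% of the outermost bins, 21.9% of those from 160 kb, 20.7% of those from 400 kb and 9.96% of those from 800 kb inward. Downward the percentages were 19.4%, 9.48%, 1.25% and 0.622%, so these bins lay mostly toward domain edges. Deep in a domain the d0 share left little room for a lower one.

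Shares also fell with domain length. In 47 domains over 3.2 Mb the mean share was 19.7% ± 9.38 (SD over domains) at d0 and 26.4% ± 11.1 at d7. In 93 domains of 0.4 to 0.8 Mb it was 63.4% ± 21.7 and 64.0% ± 21.1. The 97 domains above 0.8 and up to 1.6 Mb differed most of the 4 length classes, at 45.3% ± 17.7 and 55.7% ± 18.8. The difference is smaller than either SD, but the same domains were measured on both days. The spread of the difference within domains was not computed.

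**Figure D3:**
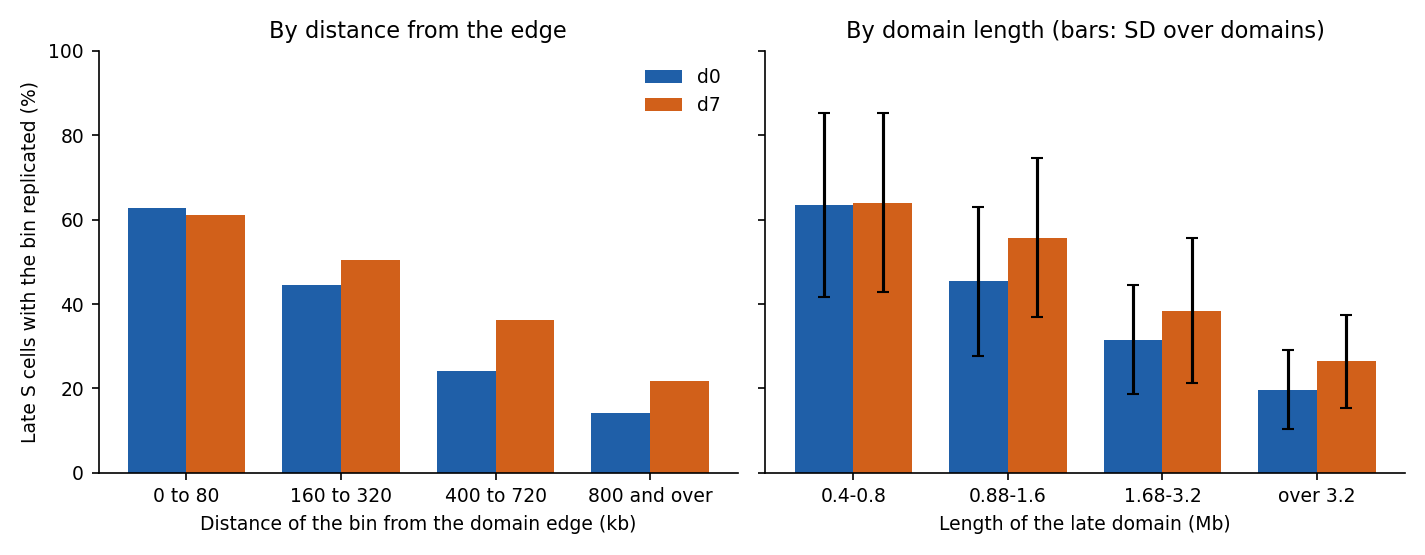
Mean percentage of matched late S cells in which bins of late domains were replicated (vertical axis), by distance of the bin from the nearer domain edge in kb (left) and by domain length in Mb (right), at d0 (blue) and d7 (orange). Error bars on the right are the SD over domains; shares fall inward and with length on both days, from 62.7% to 14.2% at d0 and from 61.0% to 21.7% at d7 on the left.

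Chromosomes differed in how many late bins passed. Among late bins, the percentage replicated in at least 30 points more d7 cells was 16.2% over all chromosomes. It was 36.7% on chromosome 19 (40 of only 109 late bins), 31.6% on chromosome 12 (123 of 389) and 29.2% on chromosome 2 (150 of 514). On chromosome 5 it was 4.87% (24 of 493). The percentage replicated in fewer, 6.03% over all, was 16.3% on chromosome 7 and 0% on chromosome 19. The mean late share on chromosome 12 was 25.6% at d0 and 43.6% at d7, and on chromosome 19 it was 35.8% and 56.7%. On chromosome 7 it went from 40.7% to 36.4%. Over all 1147 tested bins of chromosome 17, late or not, 20 (1.74%) were replicated in more d7 cells and 100 (8.72%) in fewer, against 7.23% and 4.62% genome-wide.

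The last bins to replicate were taken as those replicated in at most 20% of late S cells. Of the 29656 tested bins, 3542 were rare at d0 (283 Mb) and 2626 at d7 (210 Mb). Shared between the lists were 1827, which is 51.6% of the d0 list and 69.6% of the d7 list. The 1715 bins rare at d0 alone were replicated in 10.4% of d0 and 47.7% of d7 cells. The 799 rare at d7 alone were replicated in 41.2% and 12.8%. Leaving out the poorly ranked cells, the lists held 3551 and 2904 bins, with 1964 shared. Shared rare bins were unevenly spread: they made up 13.8% of the bins tested on chromosome 14 and 12.6% on chromosome 1 (302 bins), and 0% on chromosome 9. All 1827 were late at both days, and chromosomes also differed in how much of them was late. Late bins made up 30.1%, 34.2% and 16.01% of these 3 chromosomes in turn, against 26.7% of all tested bins. Chromosome 3 had more late bins (39.6%) but fewer shared rare bins (9.36%) than chromosomes 14 and 1. How much of the spread goes with the late share was not tested. The shared rare bins took 0.438% of their number from the first 10 Mb of the chromosomes, where 5.31% of all tested bins lie. From the last 10 Mb, where 7.88% of all tested bins lie, they took 1.97%.

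Completely copied and completely uncopied bins depended on the poorly ranked cells. At d0, 15020 bins were replicated in every matched cell with a call and 233 in none. A count of 0 in 44 cells allows a share of up to 8.04% by the exact 95% interval, and more where fewer cells had a call. At d7 the numbers were 6748 and 2. Without the poorly ranked cells they were 15115 and 236 at d0 and 12306 and 40 at d7. Bins of intermediate share, between 20% and 80%, numbered 5576 at d0 and 6432 at d7 without those cells, and 5688 and 6826 with them.

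A few d7 cells had copied much of the rare set. Per matched cell, the 1827 shared rare bins were replicated at 0.219% to 26.03% at d0 (median 5.81%) and at 0.438% to 85.1% at d7 (median 4.03%). The d7 median lay below that of d0 while 4 matched d7 cells, 2 of them poorly ranked, lay above every d0 cell, the lowest of them at 41.9%. The other 2, MidS_47 and MidS_48, had AUCs of 0.848 each, above the limit of 0.8 but below every d0 cell. A d7 cell in no pair, MidS_45, also lay above every d0 cell, at 35.0% with an AUC of 0.885. In 14 of 44 pairs the d7 cell was higher. The mean over cells was 7.97% at d0 and 11.1% at d7, or 8.16% at d7 when the poorly ranked cells were left out. Over the 40 matched d7 cells with an AUC of at least 0.85, a limit chosen after seeing the data, it was 6.06%, below the d0 mean. Copying rare bins itself lowers a cell's AUC, so a limit on AUC lowers this mean by its nature.

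Named regions are runs of at least 5 bins that all passed a rule, and a cell counted as replicated in a region when more than 50% of its called bins there were. The cells that chose them also measure them, so their differences are descriptions. In all 144 regions were replicated in more d7 cells (median length 880 kb, longest 3280 kb) and 112 in fewer (640 and 2880 kb). Coordinates are of mm9, and genes are not named because no annotation of that build was used here. With the poorly ranked d7 cells left out, each of the 20 differing regions named below kept its direction.

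The region with the largest mean difference upward lay on chromosome 3 from 48640001 to 50320000. At d0 it had been copied in 3 of 44 cells (6.82%, 95% interval 1.43 to 18.7%) and at d7 in 41 of 44 (93.2%, 81.3 to 98.6%). In mid-S cells the counts were 1 of 59 and 18 of 100. Its left flank stayed late on both days (7.73% of d0 and 15.9% of d7 cells) and its right flank was mostly copied (81.4% and 95.5%). On chromosome 2 from 62560001 to 64640000, 3 of 44 d0 and 39 of 44 d7 cells were replicated, against 0 of 59 and 13 of 101 mid-S cells. Both of these regions were still uncopied in most d7 mid-S cells.

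Chromosome 13 held a further 3 of the 6 largest. From 78640001 to 80240000 the count went from 8 of 44 to 40 of 44, and all 8 d0 cells had scores above 80%. From 115840001 to 118400000 it went from 4 to 39 of 44, and from 70800001 to 72720000 from 9 to 41 of 44. The last was also copied in 60 of 101 d7 mid-S cells. The sixth region, on chromosome 9 from 27600001 to 29760000, went from 6 to 39 of 44. The intervals of the days did not overlap in any of these 6 regions, which follows from choosing the largest differences in these cells. Largely the same cells were also split by the G1 control that corrected them (3 sets at d0 and 2 at d7). There the highest d0 percentage (30.8%) lay below the lowest d7 percentage (86.4%).

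The largest differences downward reached complete copying at d0. Every matched d0 cell with enough calls was replicated in all 6 regions; of all late S d0 cells, 1 of the 11 with calls from 1 G1 control was not in the region on chromosome 12 from 22720001. Chromosome 4 from 146560001 to 147200000 had been copied in 44 of 44 cells at d0 (95% interval from 91.96%) and 8 of 44 at d7 (18.2%, 8.19 to 32.7%). Chromosome 7 from 48240001 to 50640000 went from 44 to 9 of 44, and chromosome 4 from 144800001 to 145520000 from 44 to 11 of 44. Chromosome 13 from 64960001 to 67280000 went from 32 of 32 to 5 of 44, and chromosome 12 from 18160001 to 21040000 from 38 of 38 to 4 of 44. Chromosome 12 from 22720001 to 23360000 went from 24 of 24 to 2 of 36. The missing d0 cells in the last 3 lacked calls over 50% of the region or more. Calls differed by G1 control. Of all 22 late S d0 cells corrected with 1 control, 9, 17 and 7 had enough calls in these 3 regions, in the order given. With 2 other controls, of 13 cells each, 13 and 13, 13 and 12, and 11 and 9 cells did.

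The region on chromosome 7 had been copied in 58 of 59 d0 mid-S cells and in 4 of 101 d7 mid-S cells. In the d7 late S cells with scores above 80% and up to 90%, 6 of 19 had copied it. Sparse calls left no d0 value on the left of the region from 146560001, on the right of that from 144800001 or on either side of that from 22720001. Both flanks of the chromosome 13 region were copied in 100% of d0 cells and in 85.9% and 83.6% of d7 cells.

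Among bins late at both days, 108 runs were replicated in more d7 cells and 27 in fewer. The run with the largest upward difference, on chromosome 13 from 117120001 to 117600000, lies within the region from 115840001 named above and went from 5 to 38 of 44 cells. That on chromosome 9 from 28400001 to 28800000 lies within the chromosome 9 region and went from 4 to 35 of 44. Outside those, chromosome 13 from 27120001 to 28000000 went from 1 of 44 (2.27%, 0.0575 to 12.02%) to 34 of 44 (77.3%, 62.2 to 88.5%), with 2 of 59 and 24 of 101 in mid-S cells. Its flanks were copied in 17.3% and 36.4% of d0 cells and in 90% and 91.8% of d7 cells. Chromosome 14 from 115920001 to 116800000 went from 4 to 38 of 44.

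In the other direction, chromosome 5 from 87440001 to 88240000 went from 34 of 44 d0 cells (77.3%, 62.2 to 88.5%) to 7 of 44 d7 cells (15.9%, 6.64 to 30.1%). In mid-S cells it was replicated in 8 of 59 and 2 of 101. At scores above 80% and up to 90% it was replicated in 15 of 15 d0 and 7 of 19 d7 cells. Its d0 percentage ranged from 45.5% to 100% between cells corrected with different G1 controls. Chromosome 4 from 143360001 to 143920000 went from 40 to 12 of 44. Chromosome 7 from 111760001 to 112240000 went from 32 to 8 of 44 and chromosome 6 from 59440001 to 60080000 from 32 to 7 of 44. For all 8 late runs the intervals of the days did not overlap, which again follows from how the runs were chosen.

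**Figure D4:**
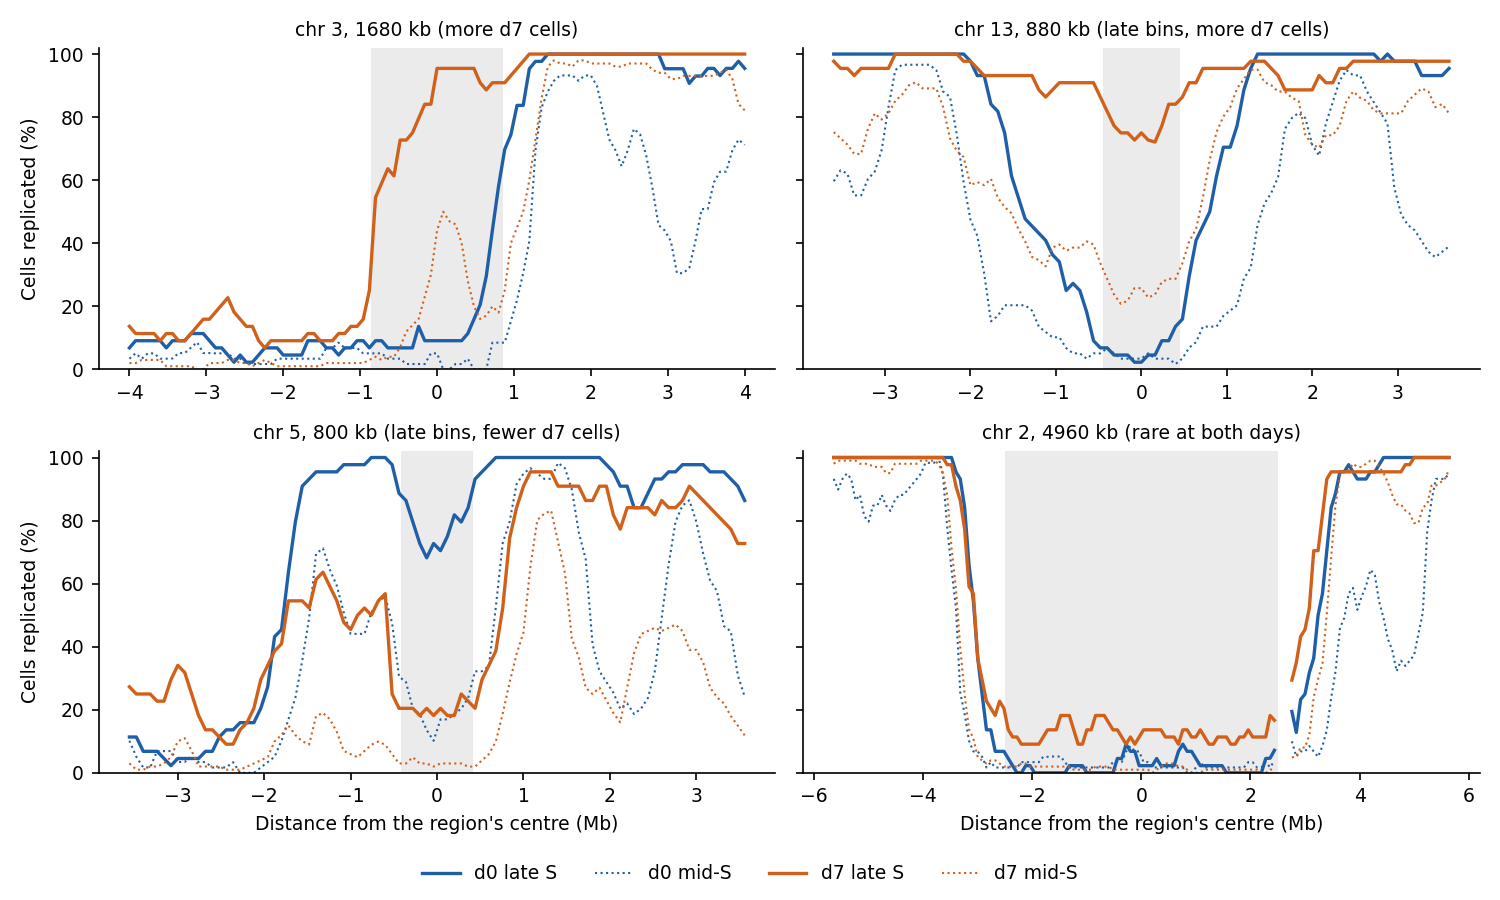
Percentage of cells replicated per 80 kb bin (vertical axis) by distance in Mb from the centre of 4 named regions (shaded), in matched late S cells (solid) and mid-S cells (dotted) of d0 (blue) and d7 (orange). In the late runs on chromosomes 13 and 5 the solid lines of the days part by 71.0 and 56.8 points on average and the dotted lines by 21.4 and 15.8; on chromosome 2 all lines stay low across 4960 kb.

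Regions rare on both days numbered 100. The longest, on chromosome 2 from 95360001 to 100320000, was replicated in 0 of 44 d0 cells (0%, up to 8.04%) and 4 of 44 d7 cells (9.09%, 2.53 to 21.7%), or in 2 of 42 when the poorly ranked cells were left out. The region on chromosome 1 from 26240001 to 30160000 was replicated in 1 and 3 of 44 cells, and that on chromosome 8 from 100080001 to 103920000 also in 1 and 3. Chromosome 14 from 107520001 to 110960000 and chromosome 4 from 77120001 to 80240000 were replicated in 0 and 2 of 44, and chromosome 1 from 47520001 to 50560000 in 2 and 2. In none of these 6 regions did the intervals of the days part, which choosing them as rare on both days makes likely.

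**Figure D5:**
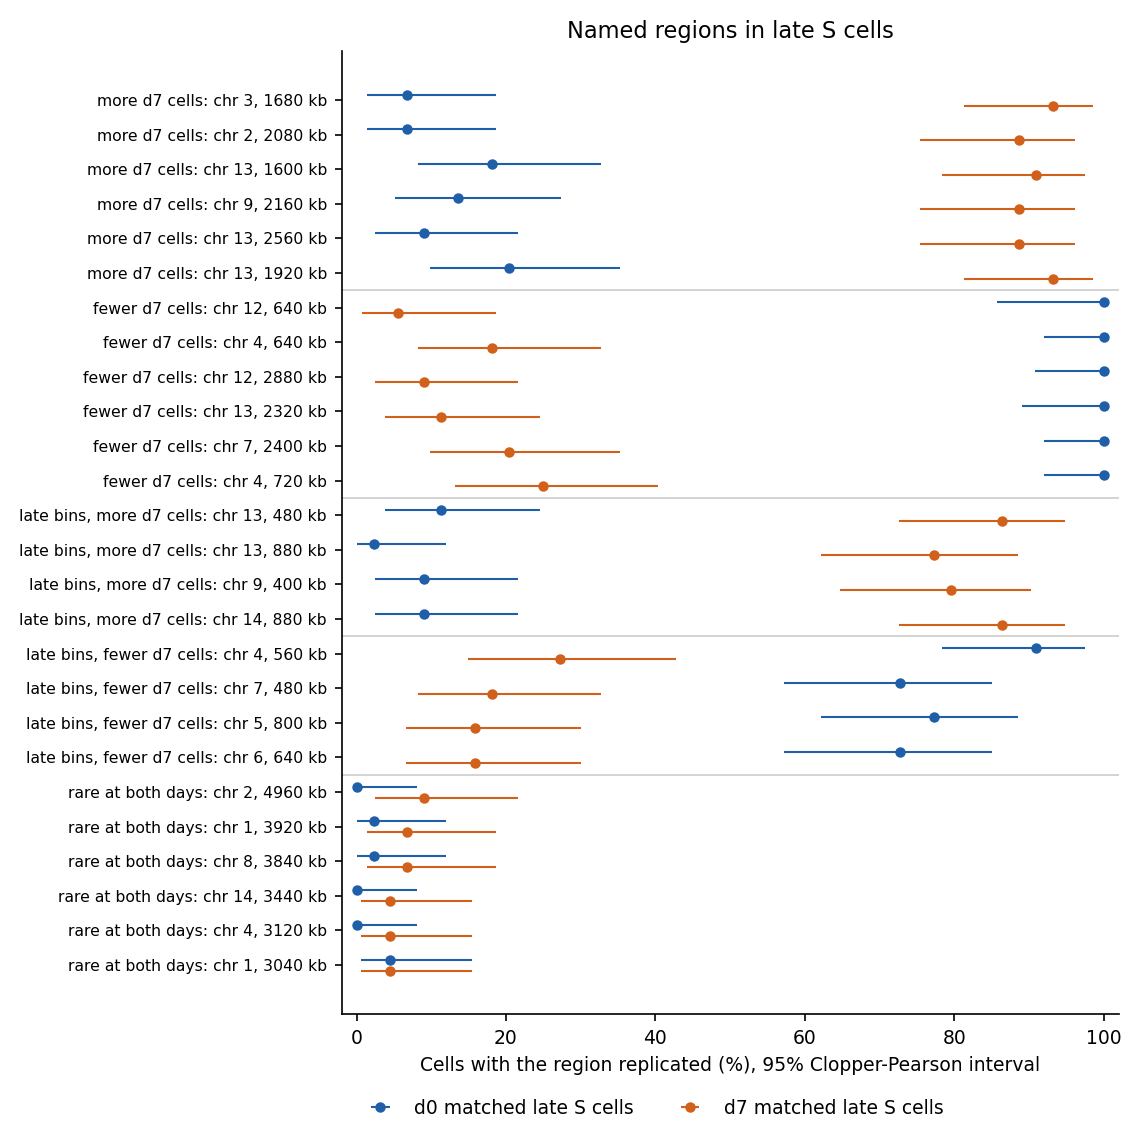
Percentage of matched late S cells in which each of the 26 named regions was replicated (horizontal axis), at d0 (blue) and d7 (orange), with exact Clopper-Pearson 95% intervals; rows give the set, chromosome and length in kb. Intervals of the days are apart in all 20 regions that differed and overlap in all 6 regions rare at both days. The regions were chosen in these same cells, which makes both outcomes likely.

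Agreement between single cells was measured in pairs with scores at most 2 points apart. The median percentage of bins called alike was 88.7% over 287 pairs within d0, 86.7% over 223 pairs within d7 and 83.3% over 479 pairs between the days. Over bins late at both days the medians were 74.2%, 71.5% and 66.1%. Without the poorly ranked cells the d7 medians were 87.2% over all bins and 72.1% over late bins. Pairs share cells, so their number is no count of independent values.

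The size rule was also applied within a day, as a yardstick. Previous-series and present-series d0 cells, in 14 matched pairs, differed by 30 points or more in 283 and 213 bins. Cells of d0 corrected with different G1 controls differed in 544 to 941 bins in one direction and 662 to 918 in the other, over 8 to 13 pairs. At d7 the corresponding numbers were 705 and 586 over 19 pairs, or 479 and 675 without the poorly ranked cells. Between the days, each combination of a d0 control with a d7 control, over 11 to 16 pairs, gave 2116 to 2615 bins replicated in more d7 cells and 1717 to 2291 in fewer. Among late bins these were 1333 to 1754 and 630 to 1308. Within d0, 364 to 710 late bins were higher and 427 to 685 lower between controls. All of these rest on fewer pairs than the 44 above, with more counting error in each share.

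Late S cells of the days between, and of epiblast stem cells (EpiSCs), were fewer and not matched in score. The EpiSCs were of strain C57BL6, grown with activin and FGF, and their state cannot be told apart from their strain. The bins replicated in more d7 cells were replicated on average in 25.1% ± 16.3 (SD over cells) of bins per cell at d0, 43.7% ± 14.5 over 25 d2 cells, 50.7% ± 16.7 over 10 d3 cells and 59.8% ± 23.3 over 12 d5 cells. They stood at 75.4% ± 15.9 over 11 d6 cells, 76.6% ± 15.4 over the 49 d7 cells and 60.7% ± 19.8 over 14 EpiSCs. The 8 d4 cells stood at 70.6% ± 13.4 with a higher mean score of 85.1%. The bins replicated in fewer d7 cells stood at 85.2% ± 7.24 at d0, 76.1% ± 8.48 at d2 and 80.5% ± 11.9 at d3. In d4 cells they stood at 74.8% ± 9.00, in d5 cells at 57.2% ± 16.8, in d6 cells at 48.6% ± 20.6, in d7 cells at 41.1% ± 19.7 and in EpiSCs at 62.6% ± 15.9. These bins were chosen on d0 and d7, which sets the order of those 2 days.

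The bins rare at both days were replicated on average at 7.77% ± 6.37 at d0 and 12.0% ± 17.02 at d7, and at 21.6% ± 11.7 at d2, 26.7% ± 14.9 at d3 and 25.6% ± 6.20 at d4. The d4 cells, not matched in score, had a mean score of 85.1% ± 4.04. Matched d0 cells with scores above 80% and up to 85% stood at 11.3% ± 2.81 over the rare bins. The 5 above 85% and up to 90%, the lowest of them at a score of 88.2%, stood at 23.4% ± 2.64. How much of the d4 value goes with score was not tested. At d5 and d6 the bins stood at 10.2% ± 5.58 and 9.19% ± 9.85. Choosing the rare bins as low on d0 and d7 makes those days low. The EpiSCs, which like d2 to d6 played no part in the choice, stood at 25.5% ± 23.7. Their median was 16.3% and their highest cell stood at 87.8%. No AUC was computed for cells other than those of d0 and d7. Single regions followed their own course: chromosome 2 from 62560001 was replicated in 18 of 25 d2 cells, and chromosome 3 from 48640001 in 3 of 25 at d2 and 11 of 11 at d6. Chromosome 5 from 87440001 was replicated in 23 of 25 d2 cells and 2 of 11 d6 cells.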

How the data were processed

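Per the labels' protocols, sorted single cells were amplified (SeqPlex kit) and read as single 80-bp reads. The submitters' processing notes name mm9 with Picard, cutadapt and BWA 0.7.10-r789. The authors corrected every cell with a merged G1 control, per the file headers, and deposited calls per 80 kb bin, coded 1 (replicated), -1 (not replicated) and 0 (no data). The deposited replication score is a fraction; recomputed as a percentage it differed by at most 5.00e-08 points. Read numbers were not used; bins called per cell are given in place of depth.

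Of 805 S-phase cells read, d0 and d7 cells with scores above 70% and up to 90% were matched in pairs at most 2 points apart, with the smallest summed difference. A bin's share was taken over cells with a call, in bins called in at least 50% of cells of each day. The table holds 79 columns of per-sample values, of G1 cells, that were not used. For 7 of those cells title and other labels disagree on the day.

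Named were, by mean difference, the top 6 regions in each direction, the top 4 in each direction among late bins and the 6 longest rare on both days. The members, bin classes, size rule and named-region rule were chosen with earlier results of these data known. Chromosome X was not analysed here. Steps were tested on simulated data. Calculations used Python 3.11.15, numpy 2.4.6, pandas 2.3.3, scipy 1.17.1 and matplotlib 3.10.9.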

Additional observations from a re-analysis of the deposited data

How the results depend on the processing

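Counts over all bins and late bins were recomputed with unmatched cells, closer pairs, a score window of 75 to 85%, cells of 1 series, the 75perS gate alone, non-overlapping intervals in place of the size rule and bins called in 80% of cells. The rare lists and mean shares were recomputed with unmatched cells, and agreement with pairs up to 5 points apart. All were recomputed without poorly ranked cells, and all but agreement without author-marked cells; that setting, and the settings for mean shares of late and early bins, were chosen after seeing the data. Of 91 values for the main results, the thresholds below included, 79 stayed within 1.5 times the reported count or within the spread between cells, 12 moved and none reversed. For the mean shares of late and early bins that spread (20.4 and 4.79 points) exceeded the difference itself, so staying within it says little. Their differences ran from 4.75 to 9.09 points over late bins and from -1.41 to -0.387 over early bins. At a difference of 20 points the counts were 3245 bins up and 2510 down over all bins, and 2018 and 1010 over late bins. At 40 points they were 818 down over all bins, and 804 up and 227 down over late bins. With late bins defined at a mid-S share of 20%, 261 passed downward. With rare set at 10% the lists held 2015 bins at d0, 1040 at d7 and 563 shared, and at 30% 2930 shared. The 20 named regions that differed kept their direction in every setting run, but these settings reuse cells that chose the regions. Among those rare on both days, 4 of 6 changed the sign of their small difference in some setting. No paired analysis was possible because no label pairs cells of the days and each day is 1 sample. The numbers of cells (44 a day) limit shares to steps of about 2.27 points.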
